A study of Mus musculus with 24 samples.

Results

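The genes described here are 10 genes of cellular iron uptake, export, storage and regulation, followed in C2C12 myotubes under lowered O2 and after electrical stimulation. They were chosen by gene symbol and make up 10 of the 55487 genes listed. The list holds Tfrc, Slc11a2 and Steap3 (uptake), Slc40a1 (export), Fth1, Ftl1 and Ncoa4 (storage and release of stored iron), and Aco1, Ireb2 and Fbxl5 (regulation). All 10 passed the filter on low values, with 14541 genes tested in all.

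RNA was sequenced from 24 cultures of C2C12, an established mouse myoblast line of wild-type genotype that fuses into contractile myotubes when serum is lowered. All cultures were differentiated under 5 % O2 and carry the day 5 label, and the 4 groups hold 6 biological replicates each. Myotubes of 5 % CTRL stayed under 5 % O2 for the 2 h exposure and were not stimulated. Myotubes of 1 % CTRL were moved to 1 % O2 for 2 h and were not stimulated. Myotubes of 5 % STIM and 1 % STIM had the same exposures to 5 % or 1 % O2 and then received repeated short bouts of electrical pulses. The paper describes the transcripts of the stimulated groups as taken immediately after the stimulation. Fresh medium, equilibrated to 5 % O2 beforehand, was given at the start of the exposure to either O2 level. The methods for stimulation also describe replacing the medium before and after the pulses. Whether unstimulated myotubes had these changes is not stated. If they did not, pulses and fresh medium cannot be told apart in the comparisons of stimulated with control groups. Cells of a line in culture have no blood supply, no liver and no red cell precursors beside them, so the iron they meet comes from the medium.

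Transferrin carries iron in the circulation and in serum, and the transferrin receptor takes it into endosomes, where a ferrireductase reduces it and a divalent metal transporter moves it to the cytosol. Iron that is not used is stored in ferritin, a shell of heavy and light chains, and leaves the cell through ferroportin. Iron regulatory proteins sense cytosolic iron and bind a short RNA hairpin, the iron-responsive element, which blocks translation when it lies in the 5′ UTR of an mRNA and protects the mRNA from decay when it lies in the 3′ UTR of Tfrc. Muscle uses much of its iron for myoglobin, haem proteins and the Fe-S clusters of the respiratory chain. Levels of mRNA are measured here, and neither translation nor iron was.

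The hairpins are shown because they divide the list into genes with an element in the 3′ UTR, genes with an element in the 5′ UTR and genes in which none was matched. Annotated UTRs (GRCm38, GENCODE M21) were searched for CNNNNNCAGTGN, a bulged C and a loop of CAGTGN on a stem of 5 bases, of which at least 4 had to pair. Capitals mark the bulged C and the loop, and each sequence is read 5′ to 3′ on the strand of the gene. The 3′ UTR of Tfrc held 4 matches with 5 of 5 stem pairs, all on the plus strand, and those of the other genes follow with their positions after them.
Tfrc, chr16:32631219-32631248: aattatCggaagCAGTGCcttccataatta
Tfrc, chr16:32631598-32631627: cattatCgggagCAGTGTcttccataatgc
Tfrc, chr16:32631663-32631692: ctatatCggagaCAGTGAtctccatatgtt
Tfrc, chr16:32631710-32631739: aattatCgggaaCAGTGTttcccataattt
Slc11a2, 3′ UTR: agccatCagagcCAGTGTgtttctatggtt
Slc40a1, 5′ UTR: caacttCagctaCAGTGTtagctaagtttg
Fth1, 5′ UTR: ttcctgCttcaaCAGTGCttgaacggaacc
Ftl1, 5′ UTR: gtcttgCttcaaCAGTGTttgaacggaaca

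The Slc11a2 element lies at chr15:100395152-100395181 on the minus strand, pairs at 4 of 5 stem positions and belongs to 1 of 6 coding transcripts, which is not the principal one. The Slc40a1 element lies at chr1:45925464-45925493 on the minus strand in 1 of 4 coding transcripts. The Fth1 element lies at chr19:9982732-9982761 on the plus strand in 4 of 5 coding transcripts. The Ftl1 element lies at chr7:45459778-45459807 on the minus strand in 1 of 2 coding transcripts. The Tfrc elements belong to 1 of 3 coding transcripts. In these 4 genes the principal transcript holds the element. Counts are per gene, so for none of the 5 genes can transcripts with and without an element be told apart. No match was found in the annotated UTRs of Aco1, Ireb2, Steap3, Ncoa4 or Fbxl5. Of 21877 protein-coding genes, 160 (0.731 %) held a match with 5 pairs in either UTR, and 1076 (4.92 %) held one with at least 4 pairs.

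Libraries held 26541858 to 28173745 reads, recovered from the smallest step between values, and 1 library stood apart. This library, 1 % CTRL replicate 1, had the steepest slope of its values on log2 exon length, 0.0945 against a range of -0.0367 to 0.055 in the others, and results that change without it are given with and without it. All 10 myotube markers were detected in each group, with summed normalized counts of 505932 to 552038 in 5 % CTRL, 450161 to 507076 in 1 % CTRL, 466337 to 536007 in 5 % STIM and 445146 to 487383 in 1 % STIM. The ranges overlapped between the control groups and between the stimulated groups. With 1 % O2, 6 of the 10 were called lower and 0 higher in controls, against 30.5 % lower and 29.4 % higher of all genes tested. The same counts held in stimulated myotubes, against 28.4 % lower and 29.0 % higher. Among the lower markers Myog, the differentiation factor myogenin, fell by 0.66 on the log2 scale in controls (adjusted p = 5.26e-14) and by 0.76 in stimulated myotubes (adjusted p = 1.85e-15). With stimulation, 2 of the 10 were called lower and 0 higher under either O2 level. Of all genes, 12.0 % were lower and 9.44 % higher under 5 % O2, and 10.8 % and 11.5 % under 1 % O2. Myog fell with stimulation by 0.53 under 5 % O2 (adjusted p = 7.19e-11) and by 0.64 under 1 % O2 (adjusted p = 9.04e-13). The part of these myotube markers in the differences of the iron genes was not tested. Erythroid markers summed to at most 17.4, with Hbb-bs and Hbb-bt at 0 in all libraries, macrophage markers to at most 103.6 and hepatocyte markers to at most 2.04. The myoblast and dividing-cell markers summed to 3066 to 3490 in 5 % CTRL, 3551 to 5560 in 1 % CTRL, 3416 to 3967 in 5 % STIM and 3842 to 4680 in 1 % STIM. The ranges of the control groups did not overlap and those of the stimulated groups did. This sum was thus higher in 1 % CTRL than in 5 % CTRL, as Tfrc was, but its members differed in direction. The difference in the sum rests mostly on Top2a, with a mean of 1264 in 5 % CTRL and 2130 in 1 % CTRL. Of the 5 markers, 3 were called higher and 1 lower in that contrast, against 29.4 % higher and 30.5 % lower of all genes. Ccnb1 was the lower one (log2 fold change -0.50, adjusted p = 1.06e-06 from limma), and Mki67 (-0.04, adjusted p = 0.766) was not called. The part of this list in the differences of the iron genes was not tested. In bulk RNA, fewer cells of a type and less RNA per cell cannot be told apart.

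Under 1 % O2 without stimulation, the receptor that brings in transferrin-bound iron was higher and most of the other iron genes were lower. Between 1 % CTRL and 5 % CTRL, 9 of the 10 genes passed the test (adjusted p under 0.05), against 59.9 % of all genes tested. Of these, 2 were higher (Tfrc and Slc11a2), where 29.4 % of all genes were, and 7 were lower (the others apart from Fth1), where 30.5 % were. The ranges of the groups did not overlap for 8 of the 10, against 38.2 % of all genes. The median log2 fold change was -0.24 over the 10 genes and 0.0015 over all genes. These and all later fold changes come from limma on log2(normalized count + 1), a scale that understates changes of low counts.

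With stimulation fewer of the genes passed the test than with O2. Between 5 % STIM and 5 % CTRL, 5 of the 10 passed the test against 21.4 % of all genes, with 3 higher (Slc40a1, Slc11a2 and Ftl1, against 9.44 % of all genes) and 2 lower (Tfrc and Ncoa4, against 12.0 %). Between 1 % STIM and 1 % CTRL, 3 passed against 22.3 % of all genes, with 2 higher (Slc40a1 and Ftl1, against 11.5 %) and 1 lower (Tfrc, against 10.8 %). Ranges did not overlap for 4 genes under 5 % O2 (11.1 % of all genes) and for 2 under 1 % O2 (11.2 %). In stimulated myotubes the O2 contrast, 1 % STIM against 5 % STIM, passed for 6 of the 10 against 57.4 % of all genes, with 1 higher (Tfrc, against 29.0 %) and 5 lower (Ftl1, Ireb2, Steap3, Ncoa4 and Fbxl5, against 28.4 %). Ranges did not overlap for 6 genes in that contrast, against 37.3 % of all genes. The response to stimulation differed between O2 levels for 2 genes, Slc40a1 and Ncoa4, against 11.3 % of all genes. Both had a positive interaction, as 5.88 % of all genes had, and none a negative one, as 5.43 % had. The comparisons share groups, so their values stand side by side and are not independent of each other.

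**Figure D1:**
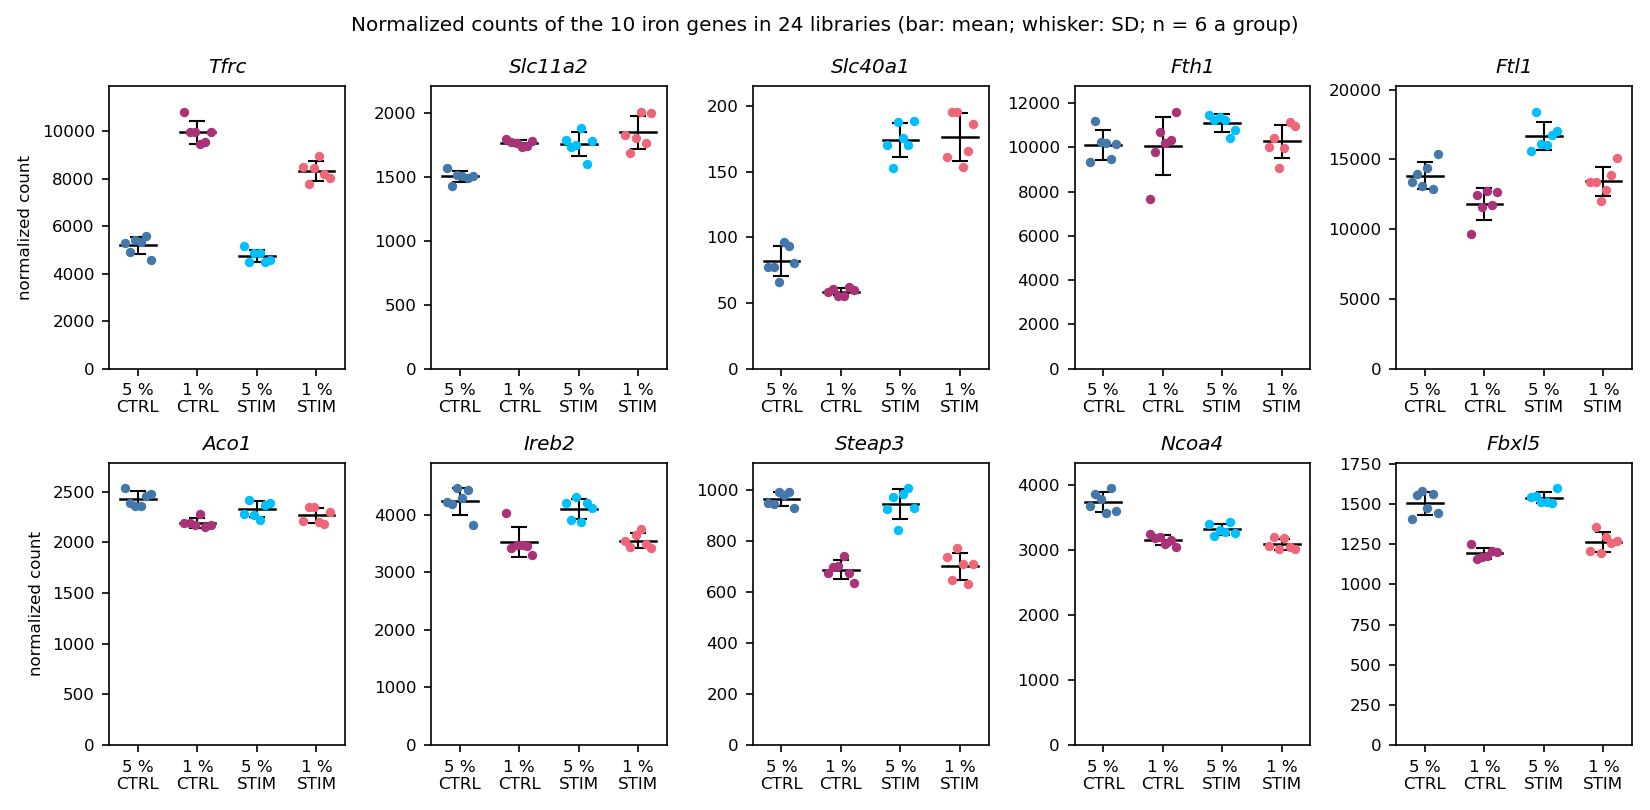
Normalized counts (vertical axes, each from 0) of the 10 genes in the 24 libraries, with 1 panel a gene and 1 point a library; the bar is the mean and the whisker the SD of 6 libraries. Tfrc separates the groups by O2, Slc40a1 separates them by stimulation, and Fth1 overlaps between all 4 groups.

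**Figure D2:**
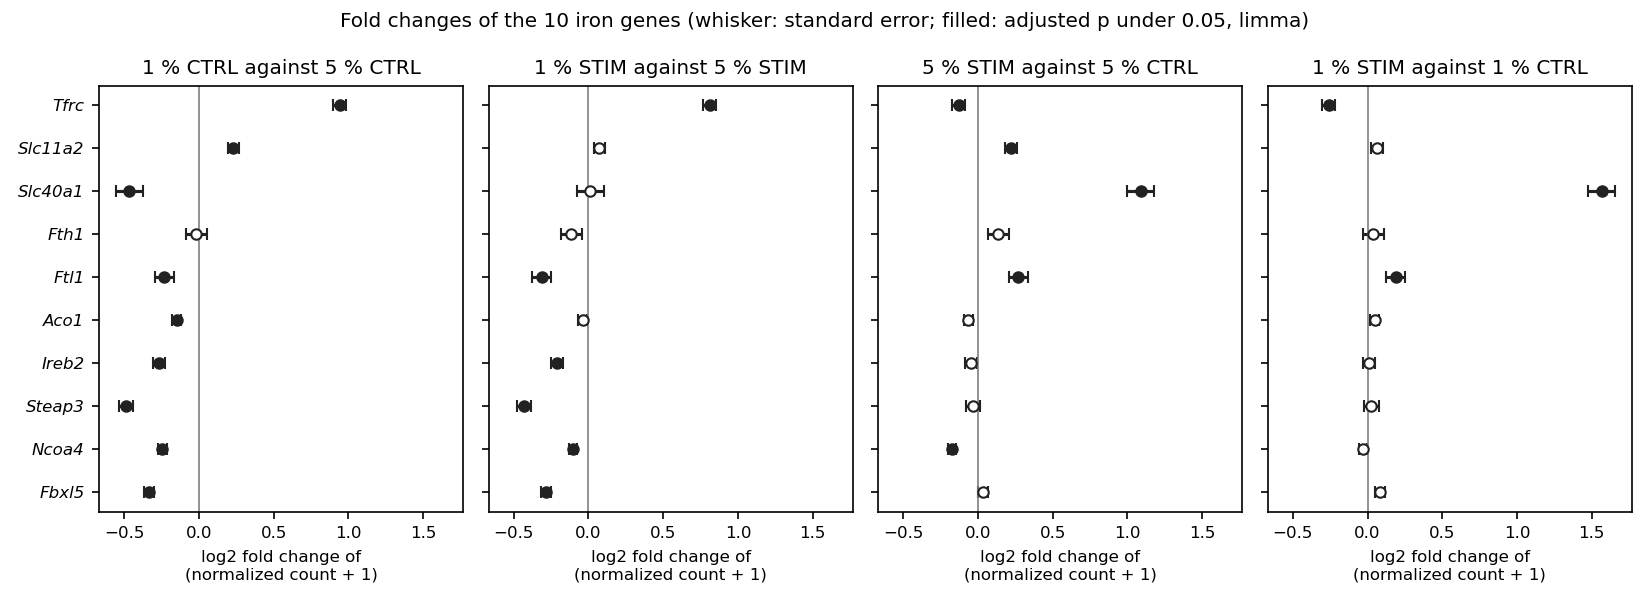
Log2 fold change of (normalized count + 1) for each gene in 4 comparisons, with the standard error as whisker and filled points for an adjusted p under 0.05. The largest rises are those of Tfrc with 1 % O2 (0.94 and 0.81) and of Slc40a1 with stimulation (1.09 and 1.57).

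Tfrc (ENSMUSG00000022797) encodes the transferrin receptor, the main entry for transferrin-bound iron, and lies on chromosome 16 from 32608920 to 32632794 (plus strand). It was the gene of the list with the largest change under 1 % O2. Its normalized count had a lowest, median and highest value of 4568, 5319 and 5567 in 5 % CTRL and of 9445, 9978 and 10827 in 1 % CTRL. It had 4494, 4712 and 5164 in 5 % STIM and 7796, 8315 and 8973 in 1 % STIM. All libraries under 1 % O2 were above all libraries under 5 % O2, and all of 1 % CTRL were above all of 1 % STIM, while 5 % CTRL and 5 % STIM overlapped. Tfrc rose 1.92-fold with 1 % O2 in controls (log2 fold change 0.94, standard error 0.04, adjusted p = 6.05e-18) and 1.75-fold in stimulated myotubes (0.81, adjusted p = 3.11e-16). With stimulation it fell under 1 % O2 (log2 fold change -0.26, adjusted p = 3.04e-05) and, by less, under 5 % O2 (-0.13, adjusted p = 0.0344). The fall under 5 % O2 passed in 8 of 11 settings, and not when the libraries were rescaled to the same total (-0.10, adjusted p = 0.119). The response to stimulation was not shown to differ between O2 levels (-0.13, adjusted p = 0.179).

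Promoter sequence is shown for Tfrc because it had the largest change with O2 of the list. ACGTG and GCGTG, the short cores of hypoxia response elements, were searched on both strands of the 250 bases before each start in RefSeq promoters (GRCm38.p6). The 2 motifs overlap in their last 4 letters but cannot match at the same position. Of 32851 promoters, 16.6 % held ACGTG, 28.2 % held GCGTG and 38.6 % held either. Both promoters listed for Tfrc held a match, 5 in all. Of these, 1 match of the upstream promoter and the outermost matches of the other are printed on the plus strand, with the match in capitals (CACGC is GCGTG read on the minus strand).
Tfrc, chr16:32608769-32608793: cagccaatcgCACGCgctctcccga
Tfrc, chr16:32608884-32608908: cggtaggtgtACGTGcggaaggaag
Tfrc, chr16:32609070-32609094: cgtggtcctcGCGTGgcgggcggac
A match was also held by 2 of 3 promoters of Ncoa4, 1 of 2 of Fth1, 1 of 1 of Ftl1 and 1 of 4 of Steap3, and by none of the promoters of Aco1 (0 of 1) and Ireb2 (0 of 1). No promoter entry was matched for Slc11a2, Slc40a1 and Fbxl5. Genes with a match thus include Tfrc, which rose in 1 % CTRL, Ncoa4, Ftl1 and Steap3, which fell, and Fth1, which did not pass the test. A match is a description of the sequence and not a site of binding.

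Slc11a2 (ENSMUSG00000023030) encodes the divalent metal transporter that moves iron out of endosomes and lies on chromosome 15 from 100387898 to 100425072 (minus strand). It was higher in each of the other groups than in 5 % CTRL. The lowest, median and highest counts were 1431, 1512 and 1570 in 5 % CTRL, 1733, 1773 and 1798 in 1 % CTRL, 1601, 1769 and 1887 in 5 % STIM, and 1689, 1818 and 2014 in 1 % STIM. No library of 5 % CTRL reached the range of another group, and the other 3 groups overlapped. Slc11a2 rose with 1 % O2 in controls (log2 fold change 0.23, standard error 0.04, adjusted p = 4.03e-06) and with stimulation under 5 % O2 (0.22, adjusted p = 4.45e-05). The differences were 0.07 (adjusted p = 0.108) for 1 % STIM against 5 % STIM and 0.06 (adjusted p = 0.259) for 1 % STIM against 1 % CTRL. The difference between the responses, -0.16, had an adjusted p of 0.0568. Of its exon sequence, 2.85 % of words of 75 bases were shared with the antisense gene Gm5475, whose highest count in a library was 1.95.

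Steap3 (ENSMUSG00000026389) encodes the endosomal ferrireductase that acts with the receptor and lies on chromosome 1 from 120190757 to 120272705 (minus strand). Its counts followed O2 and did not separate by stimulation. They had a lowest, median and highest value of 927, 964 and 990.0 in 5 % CTRL, 633, 686 and 742 in 1 % CTRL, 844, 951 and 1006 in 5 % STIM, and 632, 709 and 770.2 in 1 % STIM. Every library under 1 % O2 was below every library under 5 % O2. Steap3 fell by 0.49 on the log2 scale in controls (standard error 0.05, adjusted p = 8.06e-11) and by 0.43 in stimulated myotubes (adjusted p = 1.67e-09), the largest falls with O2 on the list in this fit. The values for stimulation were -0.03 under 5 % O2 (adjusted p = 0.693) and 0.03 under 1 % O2 (adjusted p = 0.768). Within the uptake genes, Tfrc and Steap3 therefore went in opposite directions with O2.

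Slc40a1 (ENSMUSG00000025993) encodes ferroportin, the iron exporter, and lies on chromosome 1 from 45908068 to 45926523 (minus strand). It was the gene of the list with the largest response to stimulation and the lowest level. The lowest, median and highest counts were 66.0, 79.1 and 96.2 in 5 % CTRL, 55.2, 59.1 and 62.4 in 1 % CTRL, 153, 173 and 189 in 5 % STIM, and 153, 176 and 196 in 1 % STIM. Both stimulated groups lay above both control groups with no overlap, 1 % CTRL lay below 5 % CTRL, and the stimulated groups overlapped each other. With stimulation Slc40a1 rose 2.13-fold under 5 % O2 (log2 fold change 1.09, standard error 0.09, adjusted p = 1.91e-11) and 2.96-fold under 1 % O2 (1.57, adjusted p = 1.47e-15). The response was larger under 1 % O2 by 0.48 on the log2 scale (standard error 0.13, adjusted p = 0.0122). With 1 % O2 it fell in controls (-0.47, adjusted p = 4.05e-05), and the value in stimulated myotubes was 0.01 (adjusted p = 0.917). The larger response under 1 % O2 thus came with a lower unstimulated level and overlapping ranges after stimulation.

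Fth1 and Ftl1 encode the heavy chain, which oxidizes iron, and the light chain, which supports the iron core. Fth1 (ENSMUSG00000024661) lies on chromosome 19 from 9980598 to 9985098 (plus strand) and Ftl1 (ENSMUSG00000050708) on chromosome 7 from 45457944 to 45459884 (minus strand). Ftl1 was lower under 1 % O2 and higher after stimulation, and Fth1 did not pass the test in any comparison. The lowest, median and highest counts of Ftl1 were 12847, 13671 and 15404 in 5 % CTRL, 9654, 12115 and 12719 in 1 % CTRL, 15591, 16453 and 18423 in 5 % STIM, and 11987, 13370 and 15090 in 1 % STIM. Those of Fth1 were 9340, 10187 and 11216 in 5 % CTRL, 7664, 10272 and 11619 in 1 % CTRL, 10436, 11242 and 11482 in 5 % STIM, and 9079, 10224 and 11164 in 1 % STIM. For Ftl1, 5 % STIM lay above the other groups with no overlap and 1 % CTRL lay below 5 % CTRL, while 1 % STIM overlapped both control groups. For Fth1 all groups overlapped.

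Ftl1 fell with 1 % O2 in controls (log2 fold change -0.23, standard error 0.06, adjusted p = 0.00306) and in stimulated myotubes (-0.31, adjusted p = 0.000197). It rose with stimulation under 5 % O2 (0.27, adjusted p = 0.00341) and under 1 % O2 (0.19, adjusted p = 0.0361). Without 1 % CTRL replicate 1, the library with the lowest Ftl1 count, the rise under 1 % O2 was 0.13 and no longer passed (adjusted p = 0.0732), and it passed in 9 of 12 settings. The fall in controls did not pass with libraries rescaled to the same total (-0.15, adjusted p = 0.0519). Fth1 values were -0.02 and -0.11 with 1 % O2 (adjusted p = 0.862 in controls and 0.189 in stimulated myotubes) and 0.14 and 0.04 with stimulation (adjusted p = 0.2 under 5 % O2 and 0.776 under 1 % O2). Without 1 % CTRL replicate 1, whose Fth1 count was also the lowest, the Fth1 values of 0.14 for 5 % STIM against 5 % CTRL and -0.11 for 1 % STIM against 5 % STIM passed (adjusted p = 0.0411 and 0.0459). That library is in neither contrast, but all groups share 1 estimate of the spread. Both values also passed in the limma fit of the compared groups alone (adjusted p = 0.0087 and 0.0238). Each thus passed in 2 of 12 settings.

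In 5 % CTRL the ratio of Fth1 to Ftl1 counts was 0.732 ± 0.054 (SD, n = 6), and 1 % CTRL had a ratio of 0.850 ± 0.064 (SD, n = 6). For stimulated myotubes the ratio was 0.668 ± 0.053 (SD, n = 6) under 5 % O2, while 1 % STIM had 0.766 ± 0.027 (SD, n = 6). It was highest in 1 % CTRL, where it ranged from 0.787 to 0.923, and lowest in 5 % STIM, where it ranged from 0.609 to 0.736. The ranges of 5 % CTRL and 1 % CTRL overlapped, as did those of 5 % STIM and 1 % STIM, and the ratio was not tested.

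**Figure D3:**
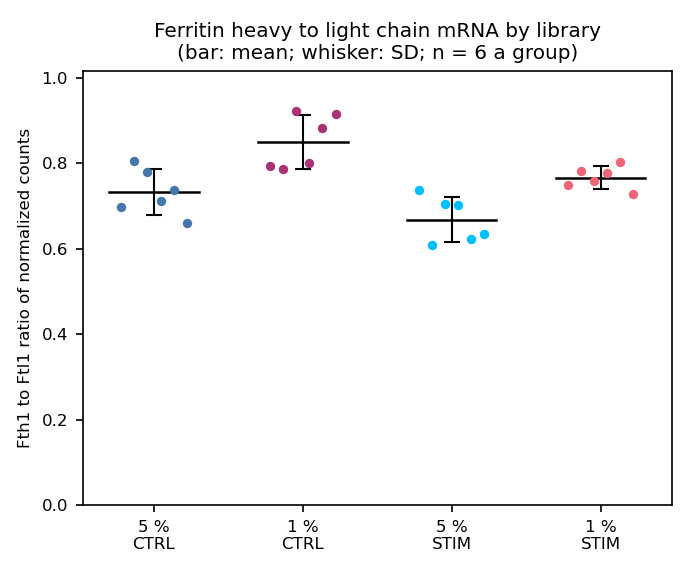
Ratio of Fth1 to Ftl1 normalized counts (vertical axis, from 0) in each of the 24 libraries by group, with the mean as bar and the SD of 6 libraries as whisker. The 1 % CTRL libraries (0.787 to 0.923) lie above all 5 % STIM libraries (0.609 to 0.736).

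Ferritin genes have near-identical copies in the genome, so their counts depend on how shared reads were divided. Of the 75-base words of Ftl1 exons, 51.3 % were found in 8 other genes, against 0.882 % of those of Fth1 in 1 gene. The paper sequenced reads longer than these words, so this is not the share of reads that fit more than 1 gene, which was not measured. The copy that shares most, Ftl1-ps1 (39.9 % of the words), had a mean count between 1.37 % and 1.82 % of that of Ftl1 in the groups. Its counts fell with 1 % O2 in controls (log2 fold change -0.45, adjusted p = 0.0481) and in stimulated myotubes (-0.48, adjusted p = 0.0366), and neither passed with libraries rescaled to the same total (-0.36, adjusted p = 0.101; -0.41, adjusted p = 0.0713). Gm10252, which is antisense to Ftl1 and covers 26.5 % of its exons, had at most 0.298 % of its mean count. Adding the counts of all copies to the ferritins changed no call of either gene. The Ftl1 level stays uncertain as far as reads of copies were assigned to it.

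Ncoa4 (ENSMUSG00000056234) encodes the receptor that delivers ferritin to lysosomes, where its iron is released, and lies on chromosome 14 from 32159865 to 32179855 (plus strand). It was highest in 5 % CTRL and lower with 1 % O2 and with stimulation. The lowest, median and highest counts were 3562, 3727 and 3946 in 5 % CTRL, 3042, 3169 and 3236 in 1 % CTRL, 3209, 3287 and 3419 in 5 % STIM, and 3017, 3049 and 3192 in 1 % STIM. All libraries of 5 % CTRL were above those of the other groups, and 5 % STIM was above 1 % STIM with no overlap. Ncoa4 fell with 1 % O2 in controls (log2 fold change -0.25, standard error 0.03, adjusted p = 4.6e-09) and with stimulation under 5 % O2 (-0.17, adjusted p = 2.04e-05). In stimulated myotubes it fell with 1 % O2 by 0.10 (adjusted p = 0.00272), which did not pass with libraries rescaled to the same total (-0.03, adjusted p = 0.351). The value for stimulation under 1 % O2 was -0.03 (adjusted p = 0.513), and the responses to stimulation differed by 0.14 (standard error 0.04, adjusted p = 0.0179). The pseudogene Gm6768 shares 16.9 % of the words of Ncoa4 and had at most 0.277 % of its mean count.

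Aco1 and Ireb2 encode the iron regulatory proteins, the first of which is an aconitase when it holds an Fe-S cluster, and Fbxl5 encodes the iron- and oxygen-binding subunit of the ubiquitin ligase that degrades the iron regulatory proteins. Aco1 (ENSMUSG00000028405) lies on chromosome 4 from 40143081 to 40198338 (plus strand), Ireb2 (ENSMUSG00000032293) on chromosome 9 from 54863789 to 54912530 (plus strand) and Fbxl5 (ENSMUSG00000039753) on chromosome 5 from 43744615 to 43821638 (minus strand). All 3 were lower in 1 % CTRL than in 5 % CTRL, and none passed the test for stimulation.

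For Fbxl5 the lowest, median and highest counts were 1408, 1515 and 1582 in 5 % CTRL, 1157, 1187 and 1253 in 1 % CTRL, 1509, 1530.1 and 1598 in 5 % STIM, and 1195, 1262 and 1359 in 1 % STIM. Every library under 1 % O2 was below every library under 5 % O2. Fbxl5 fell by 0.33 on the log2 scale in controls (standard error 0.04, adjusted p = 5.21e-10) and by 0.28 in stimulated myotubes (adjusted p = 1.84e-08). The value for stimulation under 1 % O2, 0.08 (adjusted p = 0.094), passed without 1 % CTRL replicate 1 (0.10, adjusted p = 0.0446).

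Ireb2 had 3816, 4255 and 4464 in 5 % CTRL, 3296, 3463 and 4030 in 1 % CTRL, 3870.0, 4162 and 4304 in 5 % STIM, and 3423, 3513 and 3746 in 1 % STIM. The control groups overlapped through 1 library, 1 % CTRL replicate 1, and the stimulated groups did not overlap. Ireb2 fell with 1 % O2 in controls (log2 fold change -0.27, standard error 0.04, adjusted p = 6.92e-07) and in stimulated myotubes (-0.21, adjusted p = 3.46e-05). Aco1 had 2355, 2426 and 2534 in 5 % CTRL, 2147, 2180.1 and 2277 in 1 % CTRL, 2221, 2326 and 2417 in 5 % STIM, and 2181, 2252 and 2353 in 1 % STIM. The control groups did not overlap and the stimulated groups did. Aco1 fell by 0.15 in controls (standard error 0.03, adjusted p = 5.5e-05), and the value in stimulated myotubes was -0.04 (adjusted p = 0.288).

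Levels can be compared between genes only per length, taken here as the normalized count per kb of the principal transcript. In 5 % CTRL the order ran from Ftl1 (14302) and Fth1 (10881) through Ncoa4 (1118), Tfrc (1061), Ireb2 (734), Aco1 (634), Fbxl5 (526), Slc11a2 (498) and Steap3 (329) to Slc40a1 (24.3). Ncoa4 and Tfrc were neighbours in that order within 1 SD of Tfrc (76.0 per kb). In 1 % CTRL, Tfrc stood at 2037 per kb, above Ncoa4 at 943.

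Genes whose pattern was most like that of a member over the 24 libraries were found by Pearson correlation on the log2 scale, as a description over points that share groups and normalization. For Tfrc these were Rnf217 (r = 0.990) and Tmpo (r = 0.988), and for Slc40a1 Bcl2l11 (r = 0.982) and Gcnt1 (r = 0.977). Rnf217 averaged 1276, 2431, 1233 and 2062 counts in 5 % CTRL, 1 % CTRL, 5 % STIM and 1 % STIM, and Bcl2l11 averaged 132, 102, 269 and 279 in the same order. For Ftl1 they were Shmt2 (r = 0.954) and Eif4ebp1 (r = 0.940), for Fth1 Tpt1 (r = 0.916) and Tbca (r = 0.895), and for Slc11a2 Marcks (r = 0.892) and Fzd7 (r = 0.881). For Steap3 they were 9930111J21Rik2 and Col4a5, for Fbxl5 Slc37a2 and Serinc3, for Ireb2 Socs4 and Ube3a, for Ncoa4 Gtpbp8, and for Aco1 Kansl2-ps and Eif4b, with r between 0.846 and 0.967.

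The other genes of iron handling were taken from 6 lists with 79 genes, of which 71 were tested. With 1 % O2 in controls, 42 of the 71 passed (59.2 %, against 59.9 % of all genes), 23 higher and 19 lower. With stimulation under 5 % O2, 13 passed (18.3 %, against 21.4 %), 9 higher and 4 lower. In stimulated myotubes 37 passed with 1 % O2 (52.1 %, against 57.4 %), 18 higher and 19 lower. Under 1 % O2, 11 passed with stimulation (15.5 %, against 22.3 %), 8 higher and 3 lower. These shares lie near or below those of all genes.

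**Figure D4:**
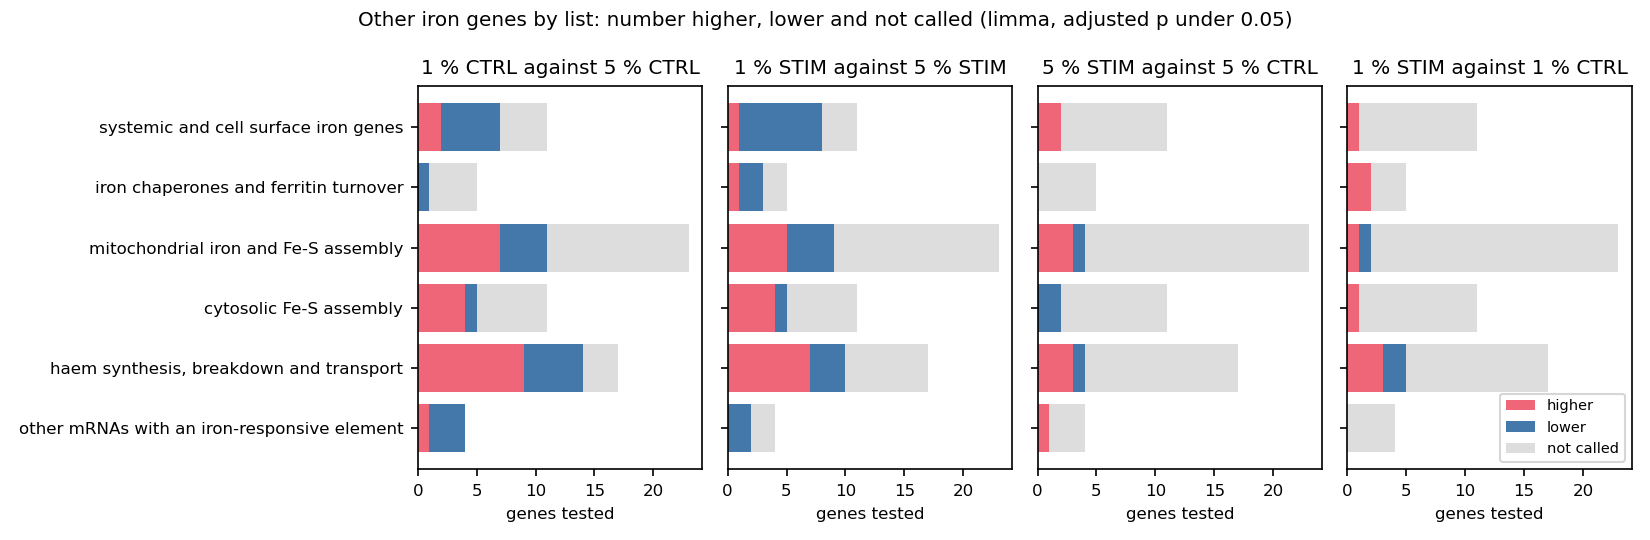
Number of genes tested (horizontal axes) in 6 lists of other iron genes that were higher, lower or not called in 4 comparisons, at an adjusted p under 0.05. Of the 11 systemic and cell surface genes, 5 were lower and 2 higher with 1 % O2 in controls and 7 lower and 1 higher in stimulated myotubes, and of the 17 haem genes 9 were higher and 5 lower in controls and 7 higher and 3 lower in stimulated myotubes, against 29.4 % higher and 30.5 % lower of all genes tested in controls and 29.0 % and 28.4 % in stimulated myotubes.

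Among the systemic and cell surface genes, Slc39a14, a metal transporter that can take up iron not bound to transferrin, fell with 1 % O2 in controls (log2 fold change -0.36, adjusted p = 2.68e-13) and in stimulated myotubes (-0.38, adjusted p = 6.92e-14). Its counts ranged from 3413 to 3591 in 5 % CTRL and from 2560 to 2833 in 1 % CTRL, with no overlap. Cp, the ferroxidase ceruloplasmin, fell by 0.32 and 0.29 in the same contrasts (adjusted p = 6.69e-08 and 3.73e-07). Steap2, of the same metalloreductase family as Steap3, rose by 0.44 and 0.29 (adjusted p = 8.11e-10 and 3.41e-06), opposite to Steap3. Hamp, which encodes the hormone hepcidin, had at most 2.04 counts in a library, and Trf, which encodes transferrin, at most 1.95. Of the 23 mitochondrial iron and Fe-S assembly genes, 7 were higher and 4 lower with 1 % O2 in controls. Of all genes, 29.4 % were higher and 30.5 % lower. In stimulated myotubes 5 were higher and 4 lower, against 29.0 % and 28.4 %. Slc25a37 of this list, which encodes a mitochondrial iron importer, fell in controls by 0.33 (adjusted p = 5.39e-09) and in stimulated myotubes by 0.42 (adjusted p = 4.06e-11). Cisd3 of the same list rose by 0.24 (adjusted p = 0.000185) and 0.21 (adjusted p = 0.000618).

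Hmox1 encodes haem oxygenase, which releases iron from haem, and had the largest response to stimulation of the named haem genes. Its lowest, median and highest counts were 1724, 1849 and 1942 in 5 % CTRL, 1789, 1833 and 1931 in 1 % CTRL, 3067, 3531 and 3580.2 in 5 % STIM, and 2014, 2234 and 2409 in 1 % STIM. Both stimulated groups lay above both control groups, and 5 % STIM lay above 1 % STIM. Hmox1 rose with stimulation by 0.89 under 5 % O2 (adjusted p = 5.89e-18) and by 0.26 under 1 % O2 (adjusted p = 1.16e-05). The response was smaller under 1 % O2 by 0.63 (interaction -0.63, adjusted p = 1.24e-09), whereas that of Slc40a1 was larger.

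Of the haem synthesis genes, Ppox rose with 1 % O2 by 0.50 in controls (adjusted p = 4.86e-08) and by 0.18 in stimulated myotubes (adjusted p = 0.0185), with an interaction of -0.32 (adjusted p = 0.0211). Alas1 rose by 0.35 in controls (adjusted p = 4.2e-09) and by 0.41 in stimulated myotubes (adjusted p = 1.26e-10). Fech, also a gene of haem synthesis, went the other way and fell by 0.12 in controls (adjusted p = 0.000362) and by 0.08 in stimulated myotubes (adjusted p = 0.0115). Flvcr1, described as a haem exporter, fell with 1 % O2 in controls by 0.47 (adjusted p = 1.82e-09), had a log2 fold change of -0.10 that did not pass in stimulated myotubes (adjusted p = 0.104), and had an interaction of 0.37 (adjusted p = 0.000771). Among the other mRNAs known for an iron-responsive element, Cdc14a rose with 1 % O2 in controls (0.37, adjusted p = 0.00245) and had a value of 0.21 in stimulated myotubes that did not pass (adjusted p = 0.0853). Cdc42bpa fell in controls (-0.28, adjusted p = 4.9e-08) and in stimulated myotubes (-0.24, adjusted p = 1.07e-06), as did Epas1 (-0.96, adjusted p = 2.09e-05, and -0.95, adjusted p = 2.64e-05). Epas1, the hypoxia-inducible factor 2α gene, had a mean below 100 and was named after its values were seen.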

How the data were processed

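The authors made stranded mRNA libraries from 24 cultures, checked reads with FastQC 0.11.7, aligned them to GRCm38 with STAR 2.5.4b and quantified genes with RSEM 1.3.0 at default settings, which do not use strand, so sense and antisense reads cannot be told apart. The deposited signal is the gene count divided by a DESeq2 size factor (0.955 to 0.993 under 5 % O2, 1.02 to 1.05 under 1 % O2). The authors' own comparisons, log2 fold changes and p-values in a second table, were not used. Whole reads were recovered (100 % of values within 0.001).

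Genes whose normalized count reached 10 in 6 or more of the 24 libraries entered 1 limma 3.58.1 fit of the 4 groups (R 4.3.3; trend and robust) on log2(normalized count + 1), with p-values adjusted by Benjamini-Hochberg across all 14541 such genes and calls under 0.05. The fit was tested on simulated data, and replicates differed by more than sampling noise (chi-square per gene of at least 2.54). The members and lists were chosen with earlier results of these data known. Named genes were the members, up to 3 risers and 3 fallers per list and comparison with a mean of at least 100, genes sharing exon words with the ferritins, and the 2 genes best correlated with each member; the text prints a selection, made after their values were seen. A few of these genes are not reported here, although every count includes them. Alternatives were rescaled totals, a replicate block, a fit of the compared groups alone, pseudocount 10, every gene without a filter, removal of the exon length trend, no 1 % CTRL replicate 1, a threshold of 0.01, ferritins summed with their copies, and voom, edgeR 4.0.16 and DESeq2 1.42.0 on whole reads.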

Additional observations from a re-analysis of the deposited data

Results flagged for a closer look

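In 3 of 40 sets of 6 libraries, 1 library lay far from the other 5, where chance gives about 1 in 20. Ftl1 had 9654 normalized counts in 1 % CTRL replicate 1, against 11588 to 12719 in the other libraries of the group. Ireb2 had 4030 in the same library, against 3296 to 3481. Aco1 had 2277 in 1 % CTRL replicate 4, against 2147 to 2194. The first library is the one whose values had the steepest slope on exon length, and the part of that slope in these values was not tested.

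The response to stimulation differed between O2 levels for 2 of the 10 genes by the interaction in limma, against 11.3 % of all genes tested. For Slc40a1 it was larger under 1 % O2 by 0.48 on the log2 scale (adjusted p = 0.0122), and all 6 stimulated libraries lay above all 6 controls at each O2 level. For Ncoa4 the difference was 0.14 (adjusted p = 0.0179), with a fall of all 6 stimulated libraries below the controls under 5 % O2 and overlapping groups under 1 % O2.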

How the results depend on the processing

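Of 500 values of the 10 genes under the alternatives, 474 kept their direction and side of the threshold, 8 no longer passed, 12 passed only under the alternative and 6 changed sign without a call. The changes of sign were Slc40a1 in 1 % STIM against 5 % STIM (-0.0243) and Ireb2 in 1 % STIM against 1 % CTRL (-0.0045) with the exon length trend removed, Fth1 in 1 % CTRL against 5 % CTRL (0.0644) and Aco1 in 1 % STIM against 5 % STIM (0.0326) with libraries rescaled to the same total, and Fth1 without 1 % CTRL replicate 1 in 1 % CTRL against 5 % CTRL (0.0598) and in 1 % STIM against 1 % CTRL (-0.0371). The number of genes with a differing response to stimulation, 2, was 4 with the length trend removed (3 higher, 1 lower) and 0 at an adjusted p under 0.01. With the length trend removed, 1874 of all 14527 genes tested were called for this interaction. The share of all genes under 0.01 was not counted, so the 0 has no such share beside it. The cause was not tested for any of these. The member with the lowest counts, Slc40a1, had at least 55.2 normalized counts in each library, so no member lay near the minimum of 10. Among the genes called in the whole series, rescaling to the same total moved the share that was higher. This share of called genes went from 49.05 % to 62.67 % in 1 % CTRL against 5 % CTRL. In 5 % STIM against 5 % CTRL it went from 44.04 % to 62.15 %. For 1 % STIM it went from 50.44 % to 63.21 % against 5 % STIM and from 51.4 % to 62.36 % against 1 % CTRL.

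Replicate numbers are shared between groups. Deviations from the group means correlated at -0.15 to 0.15 between libraries of the same number. Of 24 libraries, 7 correlated best with a library of their own number, a count that was not set against chance. Whether libraries of the same number share a batch cannot be told from these values. With the replicate block 9, 5, 6 and 3 genes were called in the 4 comparisons, as without it, and 3 for the interaction, with Slc11a2 added (-0.16, adjusted p = 0.0345). Of all 14541 genes tested, the block gave 8730, 3190, 8350 and 3320 calls in the same order and 1710 for the interaction.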

Other observations

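The markers of myoblasts and dividing cells did not move as a unit. Pax7, a transcription factor of muscle stem cells, rose with 1 % O2 in controls by 0.69 on the log2 scale (adjusted p = 1.17e-08 from limma) and fell with stimulation under both O2 levels, by 0.38 under 5 % O2 (adjusted p = 0.000866) and by 0.35 under 1 % O2 (adjusted p = 0.00175). Myf5, a myogenic factor of myoblasts, rose with 1 % O2 in controls by 0.63 (adjusted p = 5.24e-09) and, unlike Pax7, also with stimulation (0.38, adjusted p = 0.000233 under 5 % O2; 0.41, adjusted p = 7.92e-05 under 1 % O2). Top2a, a topoisomerase of dividing cells, rose with 1 % O2 in controls by 0.74 (adjusted p = 5.19e-07), while Ccnb1, a mitotic cyclin, fell by 0.50 (adjusted p = 1.06e-06) and Mki67 had a value of -0.04 (adjusted p = 0.766). The summed level of this list thus mixes members with different directions, and its difference between the control groups rests mostly on Top2a. Mean counts in 5 % CTRL and 1 % CTRL were 1264 and 2130 for Top2a, 179 and 287 for Pax7, and 149 and 231 for Myf5. They were 1250 and 1239 for Mki67 and 428 and 304 for Ccnb1.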
